A study of Homo sapiens with 6 samples.

Results

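The 10 genes described here are YAP1 and WWTR1, the 4 TEAD genes, VGLL3, VGLL4, CTGF and CYR61, which act at the nuclear end of the Hippo pathway. They were taken by symbol from a gene-level table of 23284 genes, in which all 10 were present and all 10 were tested in each of 3 comparisons. The table comes from 6 poly-adenylated RNA libraries of WA01 (also called H1), an established line of human embryonic stem cells with a wildtype genotype, collected during induction of neural crest. There were 2 libraries each of embryonic stem cells on day 0 (ES), of the pre-neural crest stage (preNC) on day 3 and of the neural crest stage (NC) on day 5, all from this single line. The labels give 1 protocol for all libraries, day 0 included: plating on Matrigel in B27 medium with the WNT-activating GSK3 inhibitor CHIR 99021 (3 µM) and, at first, the ROCK inhibitor Y-27632 (10 µM). They do not say whether the 2 libraries of a day came from separate cultures, so the p-values may measure only technical spread. Each gene has 1 FPKM value (fragments normalised for transcript length and sequencing depth) per day, with the libraries combined, so no value per library and no standard deviation can be given.

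The Hippo pathway restrains growth through a kinase cascade in which MST kinases activate LATS kinases, which phosphorylate the coactivators YAP (gene YAP1) and TAZ (gene WWTR1) and keep them out of the nucleus. In the nucleus YAP and TAZ bind the TEAD transcription factors, which contact DNA but need a cofactor to activate genes such as CTGF and CYR61. Proteins of the vestigial-like (VGLL) family bind the same TEAD factors through a short motif and compete with YAP and TAZ for them, and VGLL4 is known as a repressor of TEAD activity. The pathway acts mainly on the location and phosphorylation of YAP and TAZ, which RNA levels do not show.

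VGLL3 had by far the widest range of the 10 genes. Its FPKM was 1.95 on day 0, 122 on day 3 and 1.03 on day 5, a span of 119-fold, whereas the other members spanned between 1.55-fold (TEAD3) and 4.53-fold (CYR61). On day 3, when VGLL3 was high, the coactivator gene YAP1, TEAD3 and the TEAD target genes CTGF and CYR61 were at their lowest of the 3 days. Of these, TEAD3 was called in no comparison, and the call of the YAP1 fall depended on how the test statistic was read. How many of all genes were lowest on day 3 was not counted, and a link to VGLL3 was not tested. Other genes listed as YAP and TAZ targets moved both ways by day 3, as given below. The TEAD genes exchanged places, with TEAD4 falling, TEAD1 rising and TEAD2 the highest of the family throughout. Changes were called at q below 0.05 in the authors' deposited table, where q is the adjusted p of Cuffdiff. By that rule 3 members rose and 4 fell between day 0 and day 3, where 20.6% of 16231 tested genes were called, 8.96% as higher and 11.6% as lower. Between day 3 and day 5, 4 rose and 1 fell, against 12.6% of 15932 tested genes, 5.93% higher and 6.68% lower. Between day 0 and day 5, 3 rose and 3 fell, against 27.0% of 16409 tested genes, 12.2% higher and 14.7% lower. When the test statistic was read as a normal deviate, 4, 3 and 3 members were called in these comparisons, against 14.6%, 7.84% and 19.1% of tested genes, and below they are marked where they lost their call. At q below 0.01 the members called were 5, 3 and 5, against 13.8%, 7.56% and 19.0%. The comparisons share their groups, so a low or high value on day 3 enters both steps.

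**Figure D1:**
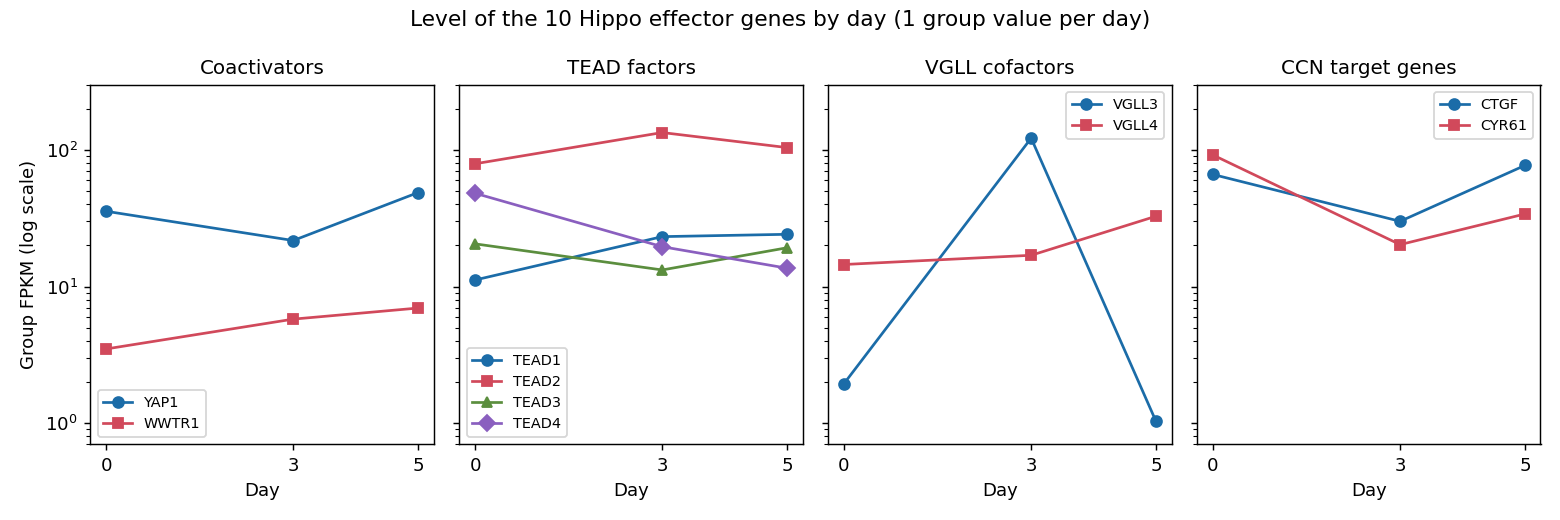
Group FPKM (log axis) of the 10 genes on days 0, 3 and 5, in panels by role, with 1 point per gene and day and no error since the libraries of a day are combined. VGLL3 goes from 1.95 to 122 and back to 1.03, while YAP1, TEAD3, CTGF and CYR61 are lowest on day 3.

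The labelled stages were checked against marker genes. The summed FPKM of 8 embryonic stem cell markers was 2461 on day 0, 1095 on day 3 and 616 on day 5, and that of 11 neural crest markers was 39.3, 42.8 and 205. All 11 crest markers stood at an FPKM of at least 1 on day 5, against 5 on day 0. The crest factor SOX10 reached 6.33, without a call between day 3 and day 5 (q = 0.215 in the authors' deposited table). By day 3, 7 of 10 tested crest markers rose and 2 fell, FOXD3 (17.9, 0.876 and 15.4) and ETS1 (7.27, 1.11 and 6.14). Both were higher on day 0 than on day 5, and NGFR was highest on day 3 (7.58, 18.5 and 11.7). Between day 3 and day 5, 9 of 11 rose and none fell. Of all tested genes, 8.96% were called higher and 11.6% lower by day 3, and 5.93% and 6.68% between day 3 and day 5. SOX2 (203, 341 and 129) and LIN28A (396, 555 and 419), which neural progenitors also express, were highest on day 3 and made up most of that day's stem cell marker sum. Neither was called between day 0 and day 3 (q = 0.0693 for SOX2 and 0.398 for LIN28A in the authors' deposited table). SOX2 fell between day 3 and day 5 (q = 0.000596 in the authors' deposited table), and LIN28A was called in no comparison. The other 6 stem cell markers were called lower by day 3, among them POU5F1 (1087, 85.3 and 9.40) and NANOG (40.8, 0.659 and 0.615). Endothelial markers summed to 35.4, 27.2 and 18.8, of which KDR (22.2, 3.14 and 2.65) and TEK (12.2, 21.5 and 15.3) made up most. By day 3, 2 of 4 tested endothelial markers rose, TEK and VWF (0.320, 2.11 and 0.697), and KDR fell. VWF fell again between day 3 and day 5 (q = 0.000596 in the authors' deposited table). The part of such cells in the values of the members was not tested. PECAM1 and CDH5 were under 1 on every day.

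YAP1 (chromosome 11, 101981192 to 102104154, hg19) was the coactivator gene with the higher FPKM on each day. Its FPKM was 35.6 on day 0, 21.7 on day 3 and 48.8 on day 5, lowest in the middle and highest at the end. It fell between day 0 and day 3 by 0.71 ± 0.37 on the log2 scale, ± giving the log2 ratio divided by the deposited test statistic as an implied standard error (q = 0.0406 in the authors' deposited table). It then rose 2.25-fold to day 5 (log2 1.17 ± 0.42, q = 0.000596 in the authors' deposited table). Day 5 stood 1.37-fold above day 0 without a call (log2 0.45 ± 0.36, q = 0.260 in the authors' deposited table). The fall to day 3 was lost with the statistic read as normal (recomputed q of 0.238), and the rise to day 5 was kept.

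WWTR1 (chromosome 3, 149235022 to 149421060), which encodes TAZ, was at 3.49, 5.78 and 6.96 on the 3 days and so was highest on day 5. Over the whole course it rose 1.99-fold (log2 1.00 ± 0.46, q = 0.00844 in the authors' deposited table), and neither single step was called, with q = 0.0915 and q = 0.632 in the authors' deposited table. The rise was not called with the statistic read as normal (recomputed q of 0.161). WWTR1 shares its locus with the antisense gene WWTR1-AS1, listed at 0.236, 0.102 and 0.195, and the strandedness of the counting is not given in the sources used here. YAP1 exceeded WWTR1 in FPKM, a scale per transcript length, by 10.2-fold on day 0, 3.76-fold on day 3 and 7.01-fold on day 5. WWTR1 thus made up 8.93%, 21.0% and 12.5% of the sum of both coactivators.

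The TEAD genes encode factors that share a DNA-binding domain and are used in different tissues. Their summed FPKM was 159 on day 0, 190 on day 3 and 161 on day 5, so the total differed less between days than its parts. TEAD2 (chromosome 19, 49838677 to 49865714), known from early embryos and the neural plate, stood at 79.3, 134 and 104 and rose by day 3 (log2 0.76 ± 0.39, q = 0.0292 in the authors' deposited table). This call was lost with the statistic read as normal (recomputed q of 0.228), and day 5 was called against neither other day. Of the TEAD sum it made up 49.8% at first, 70.6% on day 3 and 64.6% at the end. TEAD2 shares its locus with the leukocyte gene CD37, which stood at 0.708, 1.78 and 2.96.

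TEAD4 (chromosome 12, 3068478 to 3149842), known for its role in trophectoderm, moved the other way. Its FPKM was 48.3 on day 0, 19.6 on day 3 and 13.6 on day 5, falling to the lowest value of the family at the end. It fell by 1.30 ± 0.41 on the log2 scale by day 3 and by 1.82 ± 0.43 by day 5, both with q = 0.000596 in the authors' deposited table, and the step from day 3 to day 5 was not called (log2 -0.52 ± 0.39). Its share of the TEAD sum went from 30.3% on day 0 to 10.3% and 8.45%. The 7 trophoblast and amnion markers summed to 8.66, 2.48 and 4.19, with CDX2 at most 0.0338 on any day and most of the day 0 sum from KRT7 (8.45, 1.79 and 0.336), which fell at each step. GATA3 (0.00952, 0.108 and 1.84) and GATA2 (0.0787, 0.227 and 1.55) made up most of the day 5 sum and rose between day 3 and day 5. Their part in the TEAD4 values was not tested.

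TEAD1 (chromosome 11, 12695969 to 12966284), a factor known from heart and muscle development, rose early and stood at the higher level on both later days. Its FPKM was 11.2 on day 0, 23.2 on day 3 and 24.2 on day 5, the day 3 and day 5 values lying close together and both about double the first in FPKM (2.08-fold and 2.16-fold). The rise to day 3 (log2 1.06 ± 0.43) had q = 0.00283 and that to day 5 (log2 1.11 ± 0.42) q = 0.00110 in the authors' deposited table. With the statistic read as normal neither was called (recomputed q of 0.0858 and 0.0601). TEAD3 (chromosome 6, 35441374 to 35464861) went from 20.6 to 13.2 and 19.2 and was called in no comparison, with q between 0.101 and 0.882 in the authors' deposited table. On day 0 the order from the top was TEAD2, TEAD4, TEAD3 and TEAD1, and on day 5 it was TEAD2, TEAD1, TEAD3 and TEAD4. Without values per library it cannot be said which neighbours in that order differ beyond their spread.

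**Figure D2:**
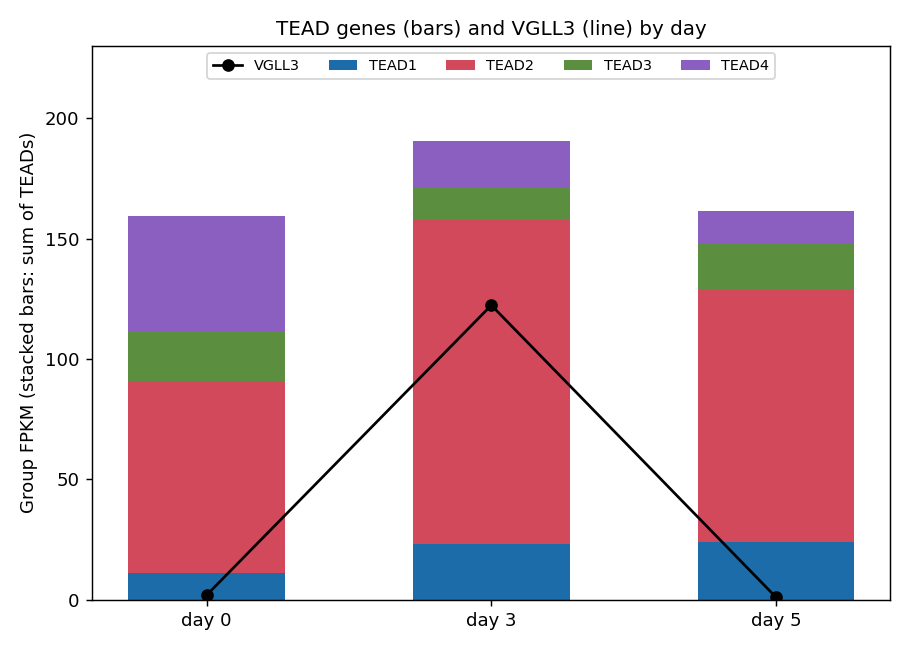
Stacked bars give the group FPKM of TEAD1 to TEAD4 on each day and the black line the group FPKM of VGLL3, on 1 linear axis without error bars. The bars reach 159, 190 and 161, and the VGLL3 line approaches them on day 3 at 122.

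VGLL3 (chromosome 3, 86987123 to 87040257) is a TEAD cofactor that lacks a DNA-binding domain of its own. From 1.95 it rose 62.9-fold to 122 (log2 5.97 ± 0.63) and then fell 119-fold to 1.03 (log2 -6.89 ± 0.64), both with q = 0.000596 in the authors' deposited table. Day 3 is the single high value, and the first and last values differ 1.88-fold. That last difference was called (log2 -0.91 ± 0.52, q = 0.0359 in the authors' deposited table) but not with the statistic read as normal (recomputed q of 0.308). On the log2 scale of FPKM plus 1, only 28 of the 16231 tested genes rose more than VGLL3 by day 3, and 17 of 15932 fell more between day 3 and day 5. In rank of level from the top, VGLL3 was number 12076 of 23284 genes on day 0, 769 on day 3 and 13221 on day 5. A rise and a fall each of more than 50-fold, both called, with an FPKM of at least 5 on day 3, were found for 4 genes: VGLL3, the homeobox gene DBX1 and the small nucleolar RNA genes SNORD36B and SNORD37. At more than 10-fold there were 13, and both limits were set after the VGLL3 values were seen. Small RNA genes made up 34.7%, 37.4% and 31.8% of the summed FPKM on days 0, 3 and 5. Without values per library it cannot be said how steady the SNORD36B and SNORD37 values are.

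Set against its partners per transcript length, VGLL3 stood 81.9-fold below the TEAD sum on day 0, 1.56-fold below it on day 3 and 156-fold below it on day 5. On day 3 its FPKM was 5.62-fold that of YAP1, while on days 0 and 5 YAP1 exceeded it by 18.3-fold and 47.3-fold. These are ratios of RNA levels and say nothing of protein. In RNA from whole cultures, more cells with VGLL3 and more RNA per cell cannot be told apart. The 7 mesendoderm markers summed to 5.67, 4.12 and 2.73, and SOX17 was at most 0.0491. Among them T peaked on day 3 but stayed below 1 (0.134, 0.777 and 0.0566). TBX6 (3.81, 1.70 and 1.11) and MIXL1 (1.28, 0.983 and 0.537) were highest on day 0, and GSC (0.147, 0.625 and 0.953) on day 5. By day 3, T was the only 1 of 4 tested markers called (25%, against 20.6% of all tested genes). The part of such cells in the VGLL3 values was not tested.

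VGLL4 (within a merged locus on chromosome 3, 11314010 to 11762220, shared with ATG7) carries a pair of TEAD-binding motifs and rose late. It stood at 14.5 on day 0, 17.0 on day 3 and 32.8 on day 5, so that the last day was the high one. Between day 3 and day 5 it rose 1.93-fold (log2 0.95 ± 0.42, q = 0.0118 in the authors' deposited table), a step not called with the statistic read as normal (recomputed q of 0.129). Between day 0 and day 5 it rose 2.26-fold (log2 1.17 ± 0.41, q = 0.000596 in the authors' deposited table). ATG7, an autophagy gene, was at 2.25, 2.61 and 2.69 and was called in no comparison. VGLL4 exceeded VGLL3 7.46-fold on day 0 and 31.7-fold on day 5, and VGLL3 exceeded VGLL4 7.21-fold on day 3.

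Of the other VGLL genes, VGLL2 showed a day 3 peak at a low level, at 0.0393, 1.25 and 0.0317. Its rise was called (log2 4.99 ± 1.29, q = 0.0115 in the authors' deposited table), and its fall missed the threshold (log2 -5.30 ± 1.53, q = 0.0522 in the authors' deposited table). VGLL1 was listed at 0 on day 0 and reached 0.0999 on day 5 without a test.

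CTGF (now also named CCN2; chromosome 6, 132269317 to 132272518) and CYR61 (CCN1; chromosome 1, 86046444 to 86049648) encode secreted matricellular proteins and are widely used readouts of YAP and TAZ activity. CTGF stood at 66.3 on day 0, 30.1 on day 3 and 77.2 on day 5, with day 3 the low value. It fell by 1.14 ± 0.35 on the log2 scale by day 3 and rose by 1.36 ± 0.34 to day 5, each with q = 0.000596 in the authors' deposited table. Day 5 was not called against day 0 (log2 0.22 ± 0.34, q = 0.663 in the authors' deposited table). CYR61 stood at 92.0, 20.3 and 34.0 and so did not regain its first level. It fell 4.53-fold by day 3 (log2 -2.18 ± 0.37) and remained 2.70-fold lower on day 5 than on day 0 (log2 -1.44 ± 0.35), both with q = 0.000596 in the authors' deposited table. Its rise from day 3 to day 5 (log2 0.75 ± 0.37) had q = 0.0483 in the authors' deposited table. That call was lost at a q threshold of 0.01, when p was adjusted within this comparison alone (q of 0.0775) and with the statistic read as normal (recomputed q of 0.203). CYR61 exceeded CTGF 1.39-fold on day 0, and CTGF exceeded CYR61 1.48-fold on day 3 and 2.27-fold on day 5.

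Fibroblasts express both CCN genes strongly. The 10 mesenchyme and fibroblast markers summed to 61.3 on day 0, 29.6 on day 3 and 79.2 on day 5, most of it from COL1A1 (34.2, 7.74 and 19.8) and COL1A2 (24.1, 14.9 and 45.2). By day 3, 2 of 8 tested markers fell (COL1A1 and POSTN) and 2 rose, COL3A1 (0.0991, 0.956 and 2.38) and PDGFRB (1.78, 4.46 and 8.93), and the lower COL1A2 value was not called (q = 0.0586 in the authors' deposited table). In the step to day 5, 5 of 8 tested markers rose and none fell. Of all tested genes, 8.96% were called higher and 11.6% lower by day 3, and 5.93% and 6.68% in the step to day 5. None of the 10 was at 0, and LUM, DCN, POSTN, TWIST1 and PRRX1 were below 1 on every day. The 7 muscle markers summed to 15.5, 4.48 and 8.25, mostly TNNT2, with MYOG at 0 on day 0 and at most 0.0233 after. The part of such cells in the CTGF and CYR61 values was not tested.

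**Figure D3:**
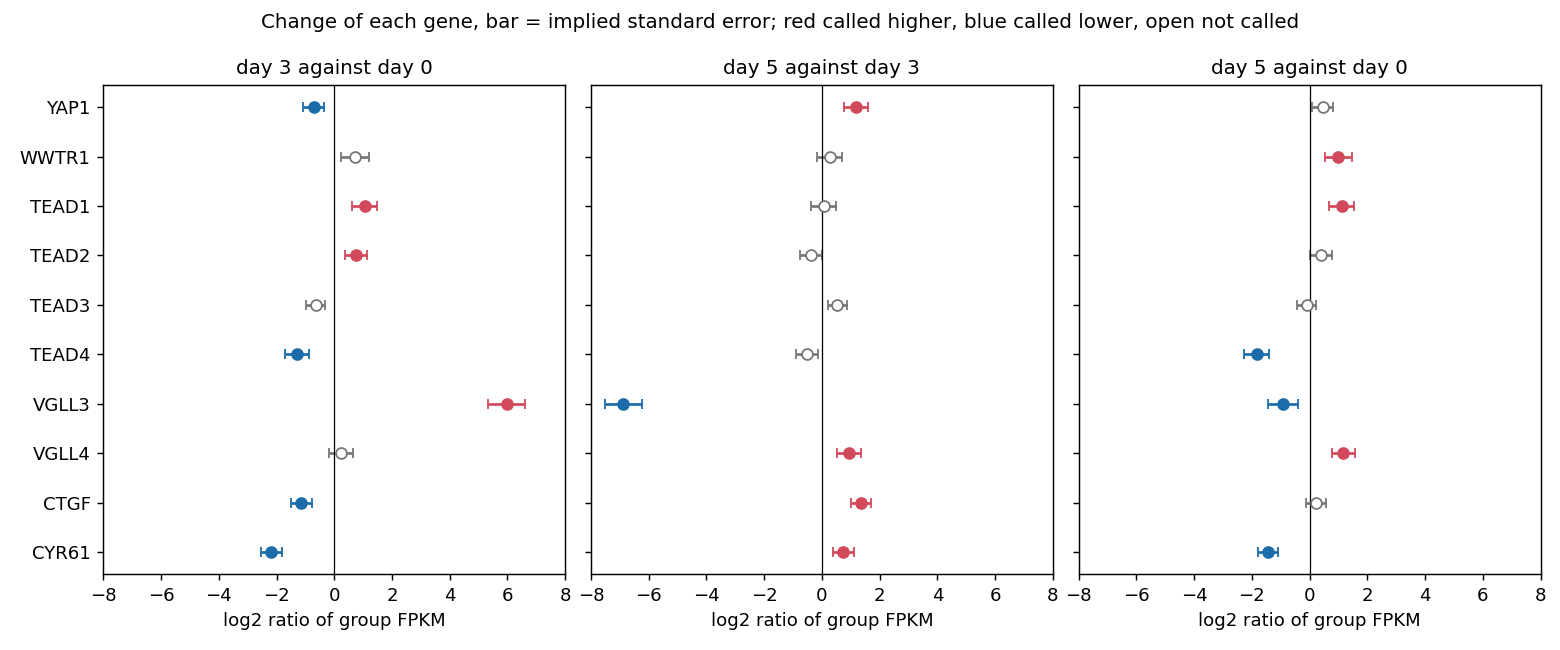
Log2 ratio of group FPKM for the 10 genes in the 3 comparisons, later day over earlier day, with bars of 1 implied standard error. Red points were called higher, blue points lower and open points not called at a q below 0.05. VGLL3 lies at 5.97 and -6.89 in the single steps, and every other point lies between -2.18 and 1.36.

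The promoters of 7 of the 10 members were taken from a table of RefSeq promoters (GRCh38.p14), some with several starts. TEAD1, TEAD4 and CYR61 had no entry in the table used here. The 250 bases before each start were searched on both strands for the core TEAD motif GGAATG, the AP-1 motif TGACTCA and the TCF/LEF motif CTTTGAT, and no matches overlapped in the windows of the members. CTGF held 3 TEAD motifs, starting 169, 104 and 95 bases before its start, all in the direction of the gene. YAP1 held 1, at 162 bases. The windows of VGLL3, WWTR1, TEAD2, TEAD3 and VGLL4 held no match. Among 35116 promoter windows of this length, 11.9% held at least 1 TEAD motif and 0.0826% (29 windows) held 3 or more. No member window held the AP-1 or the TCF/LEF motif, which 4.20% and 2.26% of all windows did. The windows of CTGF, YAP1 and VGLL3 are printed because CTGF and YAP1 share a low day 3 value and VGLL3 has its peak there. TEAD3, without a match, also had its lowest value on day 3, though it was called in no comparison. Whether a match bears on the day 3 value was not tested. Capitals mark the motif matches, and all are read 5′ to 3′ along the gene, CTGF from chr6:131951373-131951622 (minus strand), YAP1 from chr11:102110197-102110446 (plus strand) and VGLL3 from chr3:86991150-86991399 (minus strand).
CTGF: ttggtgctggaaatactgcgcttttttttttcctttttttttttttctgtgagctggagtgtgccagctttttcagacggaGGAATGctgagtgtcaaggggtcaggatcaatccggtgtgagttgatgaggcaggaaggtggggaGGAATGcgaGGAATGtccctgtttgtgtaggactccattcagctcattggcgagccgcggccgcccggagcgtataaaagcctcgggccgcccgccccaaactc
YAP1: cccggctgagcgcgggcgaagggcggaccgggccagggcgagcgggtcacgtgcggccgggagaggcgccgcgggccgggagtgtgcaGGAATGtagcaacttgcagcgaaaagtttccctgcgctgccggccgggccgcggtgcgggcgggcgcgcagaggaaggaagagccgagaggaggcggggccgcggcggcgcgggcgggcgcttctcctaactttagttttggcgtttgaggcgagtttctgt
VGLL3: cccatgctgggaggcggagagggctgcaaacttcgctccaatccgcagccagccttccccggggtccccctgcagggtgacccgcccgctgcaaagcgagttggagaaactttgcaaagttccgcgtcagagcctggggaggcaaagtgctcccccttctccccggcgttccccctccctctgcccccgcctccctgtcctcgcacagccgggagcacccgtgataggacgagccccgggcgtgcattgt
A match describes the letters only. Binding was not measured in these libraries.

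Upstream of YAP and TAZ, the share of kinase cassette genes called by day 3 (18.8%) was near that of all tested genes (20.6%). Of 16 listed and tested genes, 3 fell and none rose by day 3, 1 fell between day 3 and day 5 (6.25% called, against 12.6%), and 4 fell and 1 rose over the whole course (31.2% called, against 27.0%). By day 3 the median of their log2 ratios (FPKM plus 1) was 0.084, against 0.030 over all tested genes. SAV1, the scaffold that joins MST and LATS kinases, went from 34.5 to 13.1 and 15.7 and fell by day 3 (log2 -1.39 ± 0.42, q = 0.000596 in the authors' deposited table). WWC1 (KIBRA), an activator of the cascade, stood at 8.20, 8.60 and 3.04 and fell between day 3 and day 5 (log2 -1.50 ± 0.42, q = 0.000596 in the authors' deposited table). Its relative WWC2, whose locus also holds CLDN22, went from 19.3 to 10.2 and 10.7, and the kinase TAOK3 from 2.43 to 0.840 and 1.03, both called lower by day 3 and by day 5. STK3 (MST2) reached 12.5 on day 5 from 7.08 and was called higher over the whole course only. LATS1 (5.74, 6.12 and 6.81), LATS2 (9.74, 7.11 and 10.4) and NF2 (7.05, 7.24 and 7.66) were called in no comparison.

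Among 16 junction and adaptor genes, all tested, 3 rose and 2 fell by day 3, 2 rose between day 3 and day 5, and 7 rose and 1 fell over the whole course. These are 31.2%, 12.5% and 50% of the list, against 20.6%, 12.6% and 27.0% of all tested genes, so the share between day 3 and day 5 was near that of all genes. The angiomotins, which hold YAP at junctions and the actin skeleton, rose at different times. AMOT went from 1.57 to 4.60 and 3.44 and AMOTL1 from 3.24 to 8.32 and 9.96, both rising by day 3 with q = 0.000596 in the authors' deposited table. AMOTL2 stood at 16.6, 20.7 and 52.4 and rose between day 3 and day 5 (log2 1.34 ± 0.36, q = 0.000596 in the authors' deposited table). The protocadherin gene DCHS1 rose from 2.09 to 5.38 by day 3, and AJUBA, a LIM protein that inhibits LATS, rose from 19.3 to 42.1 over the course.

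The 20 further genes listed as YAP and TAZ targets did not all follow CTGF and CYR61 on day 3. Of 18 tested, 5 rose and 5 fell by day 3 with a median log2 ratio of -0.010 for FPKM plus 1, FOXF2 and RBMS3 being too low for a test. Between day 3 and day 5, 7 of 18 tested rose and none fell, with a median of 0.38 against -0.036 over all tested genes, FOXF2 and NT5E lacking a test. Over the whole course 9 of 19 tested rose and 3 fell, with a median of 0.50 against -0.0071. The shares called were 55.6%, 38.9% and 63.2%, against 20.6%, 12.6% and 27.0% of all tested genes. AMOTL2, LATS2 and PTPN14 stand in this list and in the lists of regulators.

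Target genes fell into different time courses. MYOF (0.881, 0.398 and 3.35) and CRIM1 (6.01, 2.51 and 8.91) fell by day 3 and rose by day 5, the direction of CTGF. Both rises had q = 0.000596 in the authors' deposited table, and CRIM1 was named after its values were seen. ANKRD1, a muscle ankyrin repeat protein and common YAP readout, rose at each step, from 0.285 to 2.66 and 9.08 (log2 5.00 ± 0.83 over the course). FJX1 (10.3, 63.0 and 55.2) and the kinase gene NUAK2 (8.95, 33.0 and 25.7) rose by day 3, the day on which CTGF was low, and were not called between day 3 and day 5. CCDC80 (1.84, 1.68 and 13.1) and GADD45A (18.7, 31.5 and 65.1) rose between day 3 and day 5. DOCK5 (1.80, 0.481 and 0.297) and NT5E (0.397, 0.0175 and 0.0144) fell by day 3 and were also named after their values were seen. NT5E was below 1 on every day. The remaining targets called by day 3 were ARHGEF17 (2.33, 7.30 and 9.05) and TGFB2 (0.257, 1.15 and 0.985), which rose, and IGFBP3 (4.48, 2.28 and 2.03), which fell. They are left out of the count of lost calls given below.

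AP-1 factors bind DNA beside TEAD at many enhancers. Of 8 tested, 2 fell by day 3, 3 rose and 2 fell between day 3 and day 5, and 3 fell over the course. The shares called were 25%, 62.5% and 37.5%, against 20.6%, 12.6% and 27.0% of all tested genes. FOS went from 44.1 to 0.748 and 6.17, so it fell by 5.88 ± 0.50 on the log2 scale and then rose by 3.04 ± 0.52, both with q = 0.000596 in the authors' deposited table. ATF3 stood at 14.6, 7.39 and 22.6 and was called in both steps, lowest on day 3 like CTGF. JUN (14.2, 11.9 and 6.31) and FOSL1 (9.76, 7.98 and 2.79) fell between day 3 and day 5. JUND, the most abundant of the 8 per transcript length, stood at 99.8, 109 and 128 without a call. Of the CCN relatives, NOV reached 0.515 on day 5 from 0.140 (q = 0.0204 in the authors' deposited table), and WISP1, WISP2 and WISP3 were at most 0.0352 and untested. Of 51 called changes in the pathway genes picked by the naming rule or after their values were seen, 10 were lost with the statistic read as normal, namely the falls of ATF3, MYOF and WWC2 by day 3, that of JUN between day 3 and day 5, and over the whole course the rises of AMOT, DCHS1, NOV and STK3 and the falls of TAOK3 and WWC2.

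**Figure D4:**
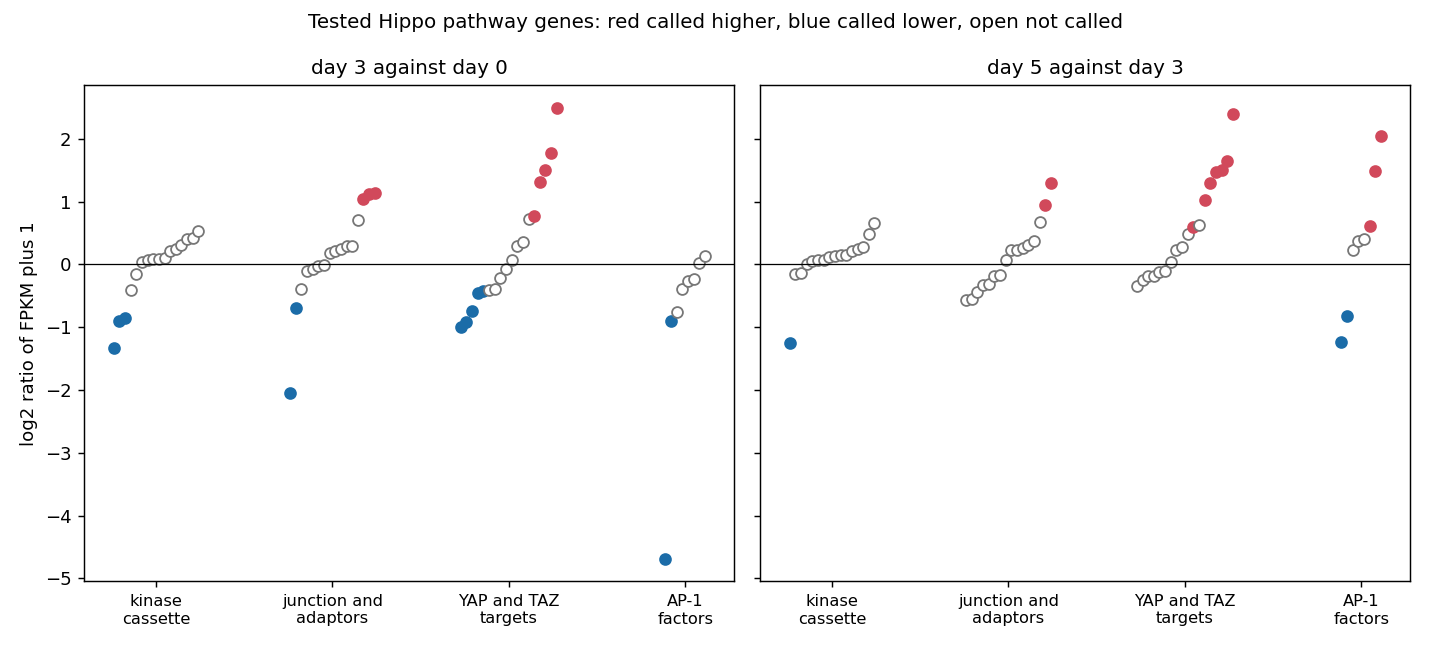
Log2 ratio of FPKM plus 1 for each tested gene of 4 pathway lists, by day 3 (left) and between day 3 and day 5 (right), 1 point per gene. Red points were called higher, blue points lower and open points not called. By day 3 the listed targets split into 5 higher and 5 lower, and between day 3 and day 5 they count 7 higher and none lower.

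The genes most like VGLL3, CTGF and CYR61 were sought by the Euclidean distance over the 3 day values of log2 FPKM plus 1, each centred on its own mean, among 10532 genes tested in all comparisons with an FPKM of at least 5 on some day. Nearest to VGLL3 were DBX1 (distance 0.960), FOXB1 (1.48), NTRK2 (1.51), CYP26C1 (1.69) and SOX21 (1.72). DBX1, which patterns progenitors of the neural tube, stood at 0.282, 81.9 and 1.26. Nearest to CTGF were PLAU (0.0465), SATB1 (0.0612), CSRP1 (0.0789), EMP3 (0.114) and EMID2 (0.123). Among the members YAP1 came first in this order, at rank 21 and a distance of 0.302. TEAD3 ranked 172, VGLL4 2076 and CYR61 5336, and the remaining members ranked lower. PLAU, the gene of urokinase, stood at 13.9, 6.19 and 16.9. Nearest to CYR61 were PDE4B (0.0277), ZNF204P (0.0471), FAM101B (0.0683), SNCG (0.0943) and NMU (0.110), with TEAD4 at rank 451 and CTGF at rank 1216. All genes share the same libraries, and with 3 values a small distance is a description of shape only.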

How the data were processed

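RNA of 6 libraries from WA01 cells, 2 each on days 0, 3 and 5, was analysed from 1 table. Alignment to hg19 names TopHat2 2.0.10 and TopHat, and testing Cuffdiff 2.1.1, per the submitters' processing notes. The sources used here do not give annotation, strandedness or read length. Per the file headers, the authors deposited FPKM values per gene and group, the Cuffdiff test statistic (used as a score), and p-values and q-values. Deposited q equals the Benjamini-Hochberg adjustment over all 48572 tested rows to within 5.25e-07, and the smallest p is 5e-05, so q cannot fall below 0.000596. Depth per library is unknown, since the lowest FPKM values show no step of 1 fragment (982, 980 and 992 of the 1000 lowest values per day are distinct). Log2 ratios were computed from FPKM, because 1796 cells of the fold column hold error text. Genes were tested where the status was OK and called at a q below 0.05. The ± value is the log2 ratio divided by the test statistic. Starts were taken as counted from 0 and are printed from 1, since reference lengths matched end minus start for 1784 genes and end minus start plus 1 for 238. The members and lists were chosen with earlier results of these data known. Named genes are the members, up to 6 called genes per pathway list that changed most (FPKM of 1 or more), the VGLL and CCN relatives, and the 5 genes nearest to VGLL3, CTGF and CYR61. Of the genes picked this way, 1 is not reported here. Python 3.11.15 with pandas 2.3.3 and scipy 1.17.1 was used. The code for the Benjamini-Hochberg adjustment and the normal p was tried on simulated data with normal noise, which does not test the deposited p and q. Alternatives were a q threshold of 0.01, adjustment within a comparison, a minimum FPKM of 1, a normal p of the test statistic, a pseudocount of 1 and 2 other scalings.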

Additional observations from a re-analysis of the deposited data

How the results depend on the processing

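No paired analysis was possible because the table holds 1 value per gene and day and none per library, and for the same reason no replicate could be left out. With p recomputed from the test statistic under a normal distribution, 4 members were called between day 0 and day 3 (7 with the deposited q), 3 between day 3 and day 5 (5) and 3 between day 0 and day 5 (6). The calls kept were VGLL3, TEAD4, CTGF and CYR61 in the first, VGLL3, YAP1 and CTGF in the second and VGLL4, TEAD4 and CYR61 in the third, and 8 of 18 calls were lost. At a q threshold of 0.01, 3 members were called between day 3 and day 5, VGLL4 and CYR61 being lost, and 5 of the 18 calls were lost in all. The cause was not tested. Adjustment within each comparison ended 1 call, that of CYR61 between day 3 and day 5, and a minimum FPKM of 1 ended none. Over the 63 further pathway genes, the total of calls in each comparison stayed within 1.5 times of its main value under these 4 alternatives. By direction, the 9 higher and 12 lower calls by day 3 became 8 and 7 at a q threshold of 0.01 and 9 and 7 with the normal p. No called ratio of a member changed direction with a pseudocount of 1, with the median log2 ratio of all genes set to 0, or with FPKM scaled to the sum without small RNA genes. The last moved all ratios by 0.17 between day 5 and day 0, which turned the uncalled TEAD3 ratio positive. The VGLL3 ratio between day 3 and day 5 was -5.92 with the pseudocount.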
